A study of Mus musculus with 19 samples.

Results

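Thymic γδ T cells of wild-type (WT) mice were set against WT DN3a thymocytes, the CD4/CD8 double-negative stage at which the αβ and γδ lineages part. The members are 6 of the 19 arrays of the series, 3 of WT γδ T cells and 3 of WT DN3a cells, chosen by cell type and genotype in the sample labels. All mice were of strain C57BL/6; their age and sex are not given in the labels, and no group was treated. Per the labels, cells were sorted from thymus by flow cytometry, the γδ T cells as lacking Gr1, NK1.1, TCRβ, CD8 and CD4, the DN3a cells as negative for CD4, CD8, TCRγδ, TCRβ, CD44 and CD28 and high for CD25. As written there, the γδ gate names no positive marker, so it could hold other thymus cells that lack the listed proteins. RNA (12 ng per array) was amplified and hybridised to expression arrays. The deposited log2 expression values were compared for 22180 genes, each read by 1 probe set, and a log2 difference of 1 equals a 2-fold difference. The other arrays used here, for 1 comparison at the end, are 3 of γδ T cells and 3 of DN3a cells of Rptor-/- mice, which carry loxP-flanked Rptor alleles (Raptor fl/fl) and a CD2-cre transgene that is active in lymphocytes.

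Thymocytes at the DN3a stage rearrange the T-cell receptor β, γ and δ genes with the Rag recombinase, under Notch signals from the thymic stroma. A productive β chain pairs with the invariant pre-TCR α chain and sends the cell into the αβ lineage, whereas a γδ receptor, which signals more strongly, raises Egr and Nr4a factors and, through them, the inhibitor Id3, which holds back the E proteins that run the DN3 programme. γδ T cells then acquire an effector programme in the thymus, of interleukin 17 or interferon γ type, and leave for epithelial and lymphoid tissues. The comparison shows how far the 2 sorted populations differed in these programmes; it does not follow the same cells over time.

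The median gene of an array stood at 6.08 to 6.13 log2 units over the 6 WT arrays, and at 6.03 to 6.13 on the 12 γδ and DN3a arrays of both genotypes. The typical gene varied little within a group, with a median SD of 0.10 log2 units in γδ and 0.093 in DN3a arrays. Differences of all genes between 2 arrays had an SD of 0.173 to 0.205 within a cell type and of 0.482 to 0.499 between γδ and DN3a arrays. Whether replicates are separate mice is not said in the labels, so a p-value here reflects the spread among these arrays alone, possibly a technical one, and the number of arrays limits the precision. In bulk samples, fewer cells of a type and less RNA per cell cannot be told apart. The cell type markers followed the labels: all 7 measured DN3a markers of 8 listed (Ptcra, Il2ra, Rag2, Notch3, Dtx1, Erg and Hes1) were lower on γδ arrays. Il2ra encodes the CD25 protein for which the DN3a cells were sorted as high, so its direction follows from the gate. Of 8 γδ markers 6 were measured, and 5 of them (Sox13, Il2rb, Blk, Zbtb16 and Id3) were higher while Cd3e was slightly lower; Trdc and Rag1 were not analysed here.

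By limma 5834 of the 22180 genes differed at an adjusted p under 0.05, 26.3% of all, with 2906 higher (13.1%) and 2928 lower (13.2%) in γδ T cells. Of these, 899 (4.05%) differed by at least 2-fold, 556 of them (2.51%) higher and 343 (1.55%) lower. The 2 groups of arrays did not overlap for 8627 genes (38.9%). Most calls were small: the median size among called genes was 0.49 log2 units, and 71 genes passed 3 log2 units, 47 higher and 24 lower. The shares of called genes and the median over all genes (−0.004) are the background for the gene lists below.

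**Figure D1:**
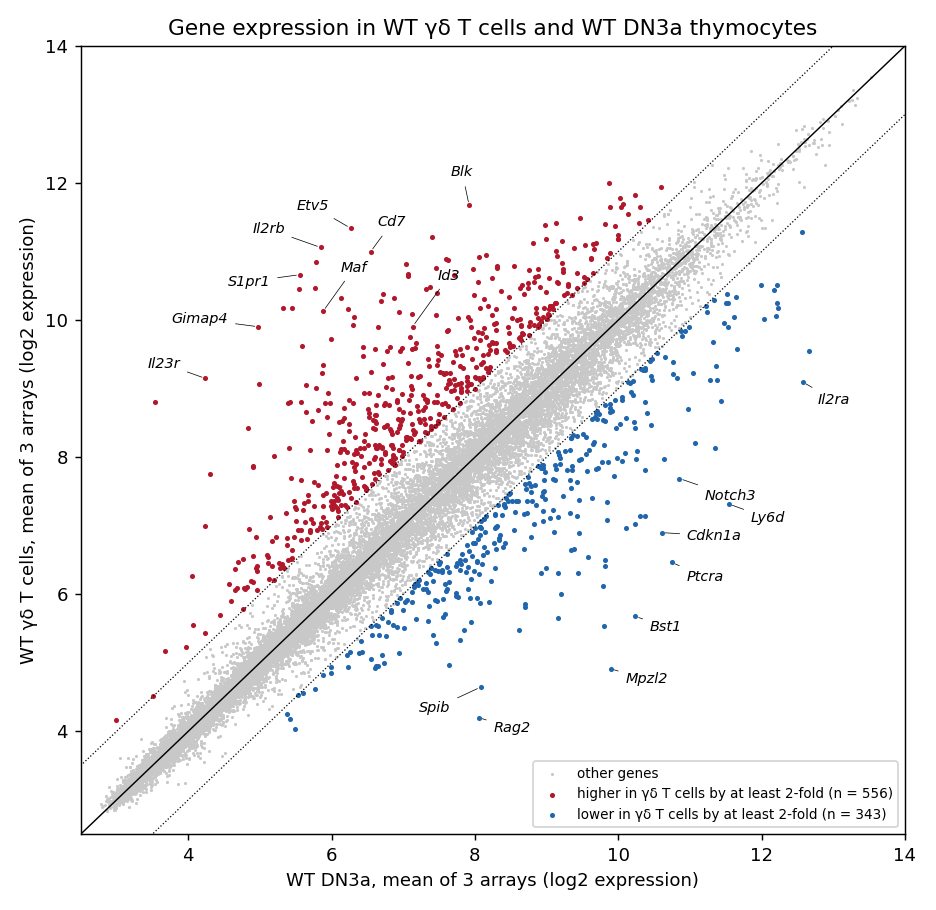
Mean log2 expression of each gene over 3 WT γδ arrays (vertical) and 3 WT DN3a arrays (horizontal); the solid line marks equality and the dotted lines 2-fold differences. Coloured points passed limma and 2-fold: 556 genes higher in γδ T cells, with Il2rb, S1pr1 and Etv5 among the farthest, and 343 lower, with Mpzl2, Bst1 and Ptcra among the farthest.

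The genes of the pre-TCR and of receptor recombination were lower in γδ T cells, with 7 of 11 measured genes lower, 2 higher and 2 not passing (median −0.37). Ptcra, the pre-TCR α chain, had 6.58, 6.26 and 6.55 log2 units on the γδ arrays, against 10.70, 10.70 and 10.84 on the DN3a arrays. The groups lay far apart, with a difference of −4.28 (SE 0.10, limma adjusted p = 4.78e-10). Rag2, a subunit of the recombinase, had 4.08, 4.07 and 4.45 in γδ T cells, against 7.96, 7.98 and 8.22 in DN3a cells, a difference of −3.85 (SE 0.12). Dntt, the terminal transferase that adds untemplated bases at receptor joints, was less extreme and stayed at 10.02 ± 0.06 in γδ T cells, against 12.04 ± 0.04 in DN3a cells (SD, n = 3 each), a difference of −2.01 (SE 0.08). Of the end-joining factors, Xrcc6 (Ku70) was lower by −1.54 (SE 0.09), and Prkdc (−0.39), Lig4 (−0.37) and Xrcc5 (−0.30, a call lost in 3 of 15 alternative settings) were lower by less. The repair polymerases Polm (1.44, SE 0.08) and Poll (0.95, SE 0.14), which fill in bases at joints, were the 2 members that were higher, and Xrcc4 (−0.26, adjusted p = 0.0724) and Nhej1 (−0.14, adjusted p = 0.67) did not pass.

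The Ptcra promoter is shown because the E proteins that Id factors inhibit bind E-box motifs and Ptcra is a known E-protein target. The RefSeq sequence of mouse assembly GRCm38.p6 covers 250 bases before to 50 bases after the gene's start, at chr17:46763663-46763962 on the minus strand, and capitals mark CAGCTG, an E-box core that reads the same on both strands.
Ptcra promoter: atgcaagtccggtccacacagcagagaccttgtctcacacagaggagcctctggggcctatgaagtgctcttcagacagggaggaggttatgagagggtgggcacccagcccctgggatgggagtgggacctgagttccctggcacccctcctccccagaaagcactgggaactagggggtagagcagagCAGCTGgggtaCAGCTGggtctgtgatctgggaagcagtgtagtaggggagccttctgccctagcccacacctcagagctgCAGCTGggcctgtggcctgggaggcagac
The window holds 3 CAGCTG matches, which do not overlap. Of 32851 promoters of the same length 16.3% hold at least 1 and 68 (0.207%) at least 3. The motif was chosen after the sequence was seen, and a match does not show binding.

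Among the E and Id proteins, the inhibitors were the genes that rose: Id3 had 10.03, 9.79 and 9.90 log2 units in γδ T cells, against 7.001, 6.99 and 7.41 in DN3a cells, a difference of 2.77 (SE 0.12, limma adjusted p = 2.71e-08). No γδ array overlapped a DN3a array. Id2 was higher by 1.01 (SE 0.13), at 8.59 ± 0.19 against 7.57 ± 0.22 (SD, n = 3 each). Of the E proteins, Tcf4 (E2-2) fell by 0.40 on the log2 scale (SE 0.09), while Tcf3 (E2A; −0.09, adjusted p = 0.505) and Tcf12 (HEB; −0.18, adjusted p = 0.139) did not pass, nor did Id1 (−0.10) and Id4 (0.06). In all, 2 of 7 genes were higher, with 1 lower and 4 not passing (median −0.09).

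Notch1, Notch3 and some Notch targets were lower in γδ T cells, while the receptor Notch2 did not pass (0.09, adjusted p = 0.47) and its γδ and DN3a values overlapped. Notch3 had 7.53, 7.61 and 7.93 log2 units on γδ arrays, against 10.94, 10.84 and 10.78 on DN3a arrays (−3.16, SE 0.11), and Notch1 had 10.12, 10.18 and 10.25, against 12.27, 12.19 and 12.25 (−2.05, SE 0.08). Notch1 and Notch3 separated the cell types on every array; Notch2 is named here after its values were seen. The targets Hes1, a repressor (−1.54, SE 0.09), and Dtx1, a ubiquitin ligase (−0.90, SE 0.08), were lower too. Other genes of the Hes and Hey families did not follow: Hey1 was higher (0.45, SE 0.12), and Hes5, Hes6, Hey2 and Heyl did not pass. The target Nrarp (−0.31, SE 0.19) did not pass either. Hey1, Hes5, Hes6, Hey2, Heyl and Nrarp are named after their values were seen. The list as a whole did not move one way: 8 of 26 genes were higher, 7 lower and 11 did not pass, with a median of −0.04. The higher members included Psen2, a catalytic subunit of γ-secretase (0.72, SE 0.09), the Notch-cleaving protease Adam17 (0.54, SE 0.07), the glycosyltransferases Lfng (0.57) and Mfng (0.44), and the coactivator Maml1 (0.54). The count of higher genes was 5 without γδ array 1 and 5 without DN3a array 1.

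Of the genes that mark the DN2 and DN3 stages, 9 of 21 were lower, with 1 higher and 11 not passing (median −0.19); 2 were higher without γδ array 1 or DN3a array 1. Mpzl2, an adhesion protein, had the largest fall of all genes named by rank: it had 4.99, 5.03 and 4.72 log2 units on γδ arrays, against 9.65, 9.94 and 10.10 on DN3a arrays (−4.98, SE 0.12). Ly6d, a surface protein of early lymphoid cells, had 7.57, 7.29 and 7.09, against 11.59, 11.58 and 11.47 (−4.23, SE 0.11). The transcription factor Erg had 6.22, 6.11 and 5.69, against 9.26, 9.16 and 9.19 (−3.20, SE 0.12). All 3 genes kept the γδ arrays below every DN3a array. Arpp21, a regulator of RNA known from T-cell progenitors and neurons, fell by 2.15 (SE 0.08), and the factor Bcl11a by 1.87 (SE 0.10), or by 0.93 when all its probe sets were averaged. Cpa3, a mast-cell protease also made by early thymocytes, ran the other way, at 11.90, 11.81 and 11.79 in γδ T cells, against 10.28, 10.20 and 10.22 in DN3a cells (1.59, SE 0.08). Kit, the receptor for stem cell factor, did not pass (−0.17, SE 0.08, adjusted p = 0.192), with 9.88, 9.72 and 9.97 in γδ T cells, against 10.02, 9.998 and 10.06 in DN3a cells, so that every DN3a array lay above the γδ arrays by a small margin.

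Other genes with large falls came from several functions. Bst1 (CD157), an ectoenzyme that makes cyclic ADP-ribose, had 5.79, 5.50 and 5.74 log2 units in γδ T cells, against 10.24, 10.20 and 10.27 in DN3a cells (−4.56, SE 0.09). Cdkn1a (p21), an inhibitor of cyclin-dependent kinases, had 7.14, 6.88 and 6.68, against 10.58, 10.58 and 10.65 (−3.70, SE 0.11). The Ets-family factor Spib had 4.85, 4.55 and 4.54, against 7.97, 8.24 and 8.03 (−3.43, SE 0.11). Each of these genes was low on all 3 γδ arrays. The receptor Adgrg1 (GPR56; −3.21), the serine protease Prss57 (−3.21), the kinase-like Camkv (−3.24), Nwd1 (−3.67) and Ccdc18 (−3.40) also fell, with SE of 0.084 to 0.125. Il2ra fell by 3.48, but it encodes the CD25 protein on which the DN3a cells were sorted.

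**Figure D2:**
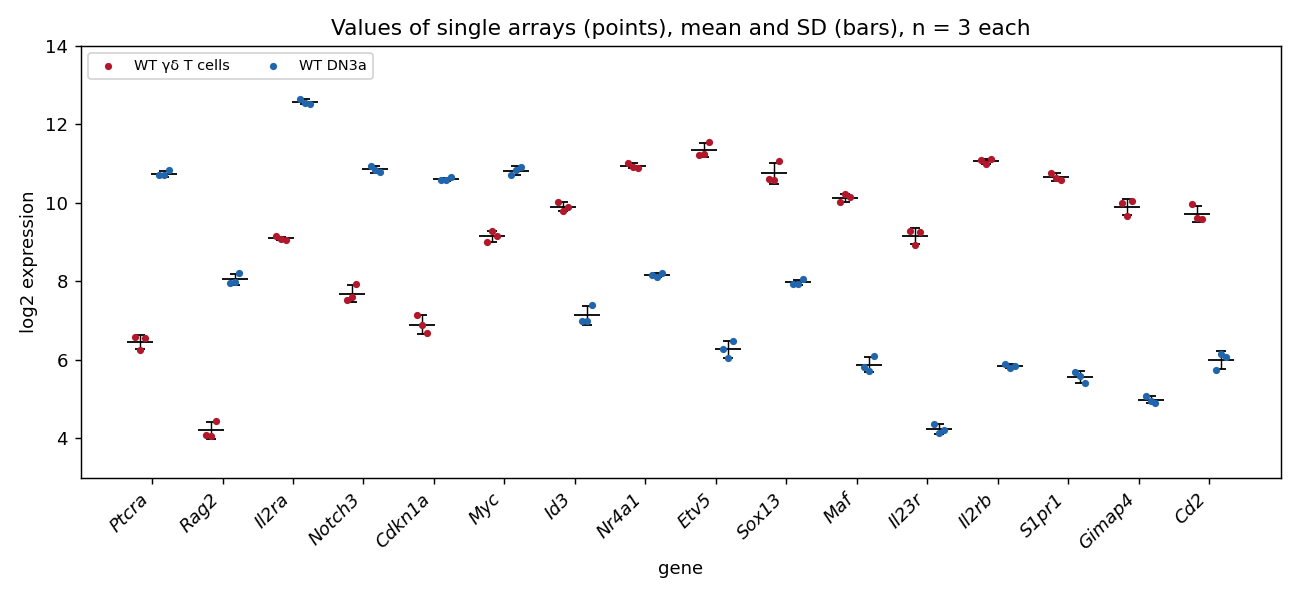
Log2 expression of 16 named genes on each WT γδ array (left of each pair) and each WT DN3a array (right of each pair); bars give the mean and SD of 3 arrays. In every gene shown the 2 groups were apart: Ptcra, Rag2, Il2ra, Notch3, Cdkn1a and Myc were lower and the other 10 genes higher in γδ T cells.

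T-cell receptor segments were read by 8 probe sets with a single gene name, and 7 of them were higher in γδ T cells. The segments are near-identical within families and their signals may include each other. The DN3a gate also excludes cells with surface TCRγδ, and both gates exclude those with TCRβ, so the sort bears on these values. Trgv5, a γ variable segment, had 5.85, 5.31 and 5.36 log2 units in γδ T cells, against 4.77, 4.41 and 4.77 in DN3a cells (0.86, SE 0.15, adjusted p = 0.00116), and Trgv6 was higher by 0.36 (SE 0.09). The segments of the shared α and δ locus differed by more. Trav7-4 had 8.95, 8.76 and 8.73 in γδ T cells, against 3.48, 3.54 and 3.58 in DN3a cells (5.28, SE 0.09), Trav9d-3 differed by 3.81 and Trav14d-3-dv8, which can join to δ segments, by 3.24. Their size depended on the probe set: with all probe sets of a gene averaged the differences were 1.86 for Trav7-4, 1.44 for Trav9d-3, 1.59 for Trav14d-3-dv8 and 0.48 for Trav12-2 (2.04 with its brightest). Trav3-4 was higher by 1.17 (SE 0.18), a call lost in the model of all 19 arrays. The β segment Trbv13-2 did not pass (−0.33, SE 0.14, adjusted p = 0.102), at 10.06 ± 0.32 in γδ T cells and 10.40 ± 0.07 in DN3a cells (SD, n = 3 each).

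The signalling machinery below the receptor was higher in γδ T cells, but the CD3 chains were not. Of 29 measured genes 16 were higher, 4 lower and 9 did not pass (median 0.44). Cd3g (−0.39, SE 0.07) and Cd3e (−0.24, SE 0.08, adjusted p = 0.045), subunits of the receptor complex, were slightly lower, and the Cd3e call was lost in 6 of 15 alternative settings. The kinase Zap70 had 10.83, 10.77 and 10.75 log2 units in γδ T cells, against 8.43, 8.54 and 8.68 in DN3a cells (2.24, SE 0.09). Its relative Syk went the other way, with 7.38, 7.28 and 7.25, against 8.35, 8.44 and 8.44 (−1.11, SE 0.08). The 2 kinases thus differed in opposite directions with no overlap of groups. Rasgrp1, which activates Ras, rose by 2.13 (SE 0.08), and Themis, a signalling adaptor of developing αβ T cells, fell by 0.88 (SE 0.10). The surface receptors Cd2 (3.73, SE 0.13), Cd5 (2.87, SE 0.08) and Cd6 (2.38, SE 0.08) were all higher; Cd5, a brake on receptor signals, is known to follow signal strength.

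Genes that respond to receptor signals were higher in γδ T cells, with 24 of 29 higher, 2 lower and 3 not passing, and a median of 1.21. Nr4a1 (Nur77), a nuclear receptor induced at once by receptor signals, had 11.03, 10.93 and 10.89 log2 units in γδ T cells, against 8.17, 8.11 and 8.21 in DN3a cells (2.79, SE 0.08, limma adjusted p = 1.42e-09). Pdcd1 (PD-1), an inhibitory receptor, had 10.81, 10.83 and 10.81, against 7.03, 7.04 and 7.06 (3.77, SE 0.07). For both genes every γδ array lay far above every DN3a array. Etv5, an Ets-family factor of the Erk pathway, had 11.23, 11.24 and 11.55, against 6.27, 6.05 and 6.47 (5.08, SE 0.12), a fold of 33.8. The phosphatase Dusp6, which switches Erk off, rose by 2.31 (SE 0.09) and the costimulator Icos by 2.59 (SE 0.11). The 2 members that fell were Ctla4, an inhibitory receptor, with 6.29, 6.39 and 6.45 in γδ T cells, against 9.16, 9.10 and 8.72 in DN3a cells (−2.61, SE 0.11), and Myc, a growth-promoting factor, with 9.01, 9.29 and 9.15, against 10.70, 10.84 and 10.93 (−1.68, SE 0.10).

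The Nr4a1 promoter is shown because Nr4a1 is the classic reporter of receptor signals in thymocytes. The RefSeq window lies at chr15:101266596-101266895 on the plus strand of GRCm38.p6, and capitals mark TGACGCA or its other-strand form TGCGTCA, an element like those bound by CREB, ATF and AP-1 proteins.
Nr4a1 promoter: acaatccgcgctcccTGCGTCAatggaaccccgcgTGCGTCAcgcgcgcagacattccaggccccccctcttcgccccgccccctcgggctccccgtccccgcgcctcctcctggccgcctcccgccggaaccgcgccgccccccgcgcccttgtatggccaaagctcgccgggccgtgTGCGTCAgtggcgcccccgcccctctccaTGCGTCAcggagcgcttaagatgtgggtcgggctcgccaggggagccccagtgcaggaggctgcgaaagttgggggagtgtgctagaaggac
It holds 4 such matches, which do not overlap. Of the 32851 promoters 2.12% hold at least 1, and this is the 1 promoter with at least 4. This motif too was chosen after the sequence was seen, and the match is a description of the letters.

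The regulators of the γδ lineage were higher almost throughout: 19 of 21 measured genes were higher, with none lower and 2 not passing (median 1.76). Sox13, a transcription factor of the lineage, had 10.61, 10.58 and 11.06 log2 units in γδ T cells, against 7.93, 7.94 and 8.05 in DN3a cells (2.78, SE 0.12). Maf, required for interleukin-17-producing γδ T cells, had 10.02, 10.22 and 10.14, against 5.82, 5.73 and 6.10 (4.25, SE 0.10). Blk, a Src-family kinase of the same subset, had 11.62, 11.62 and 11.78, against 7.90, 8.19 and 7.67 (3.75, SE 0.12). For all 3 genes the lowest γδ array was above the highest DN3a array. Zbtb16 (PLZF), the factor of innate-like T cells, rose by 2.81 (SE 0.08), Sox5 by 1.72 (SE 0.12), and Sox4 by 0.43 (SE 0.08), a call lost when all its probe sets were averaged (0.20).

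Receptors of the interleukin-17 programme were also higher, while its cytokines hardly differed. Il23r had 9.28, 8.92 and 9.25 log2 units in γδ T cells, against 4.37, 4.14 and 4.21 in DN3a cells (4.91, SE 0.11), and Il1r1 had 8.13, 8.31 and 8.84, against 4.88, 4.83 and 4.82 (3.58, SE 0.15). Il17a differed by 0.41 (SE 0.09), with 5.72, 5.55 and 5.53, against 5.13, 5.29 and 5.14. Il17f did not pass (0.38, adjusted p = 0.0837), with γδ values of 7.13, 7.24 and 7.79 against DN3a values of 6.98, 6.95 and 7.09. Ccr6 (1.29), Ccr2 (1.57), Il17re (2.06) and the scavenger receptor Cd163l1 (2.48) were higher, with SE of 0.11 to 0.13. Lymphotoxin β (Ltb, 1.76), the NF-κB subunit Relb (1.35) and the ectonucleotidase Nt5e (CD73; 2.73) rose as well, and Ltbr (−0.17, adjusted p = 0.161) did not pass. Rora was the uneven member, at 8.23, 6.68 and 6.85 in γδ T cells, against 6.09, 6.06 and 6.09 in DN3a cells: its difference of 1.17 (SE 0.31, adjusted p = 0.0163) was 0.68 without γδ array 1, and remained called.

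**Figure D3:**
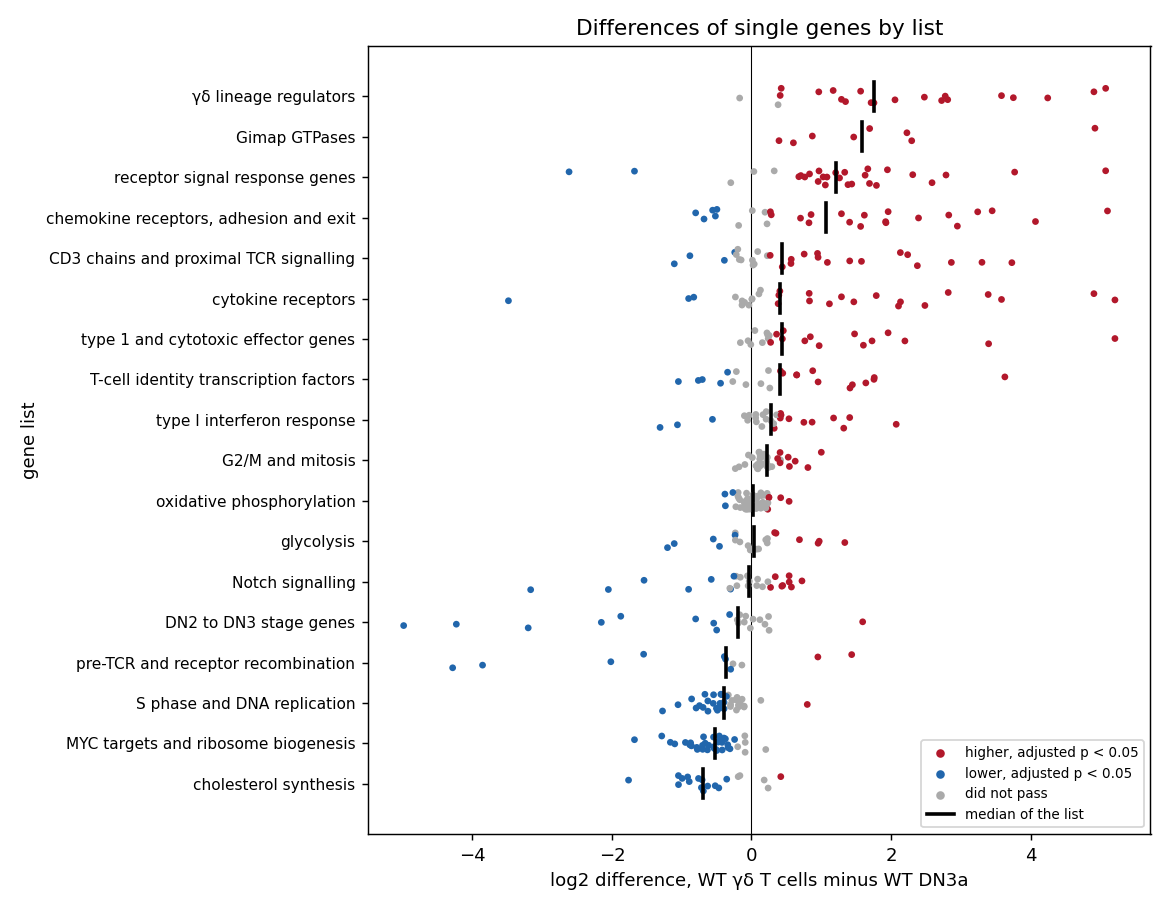
Log2 difference of each measured gene (points), WT γδ T cells minus WT DN3a, in 18 gene lists; red points were higher and blue points lower at a limma adjusted p under 0.05, grey points did not pass, and black bars mark list medians. Medians ran from 1.76 for γδ lineage regulators to −0.69 for cholesterol synthesis, against −0.004 over all genes.

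Of 23 T-cell identity transcription factors 12 were higher, 5 lower and 6 did not pass (median 0.42). Ikzf3 (Aiolos), which shapes mature lymphocytes, led with 10.11, 9.80 and 9.87 log2 units in γδ T cells, against 6.35, 6.15 and 6.38 in DN3a cells (3.63, SE 0.10). The Runx factors split: Runx3 was higher by 1.76 (SE 0.08) and Runx1 lower by −1.05 (SE 0.08), each with no overlap between groups. Gata3, the T-lineage factor, was higher by 1.45 (SE 0.09) and Foxo1, which keeps lymphocytes quiescent and lets them recirculate, by 1.76 (SE 0.10), or by 0.89 and 1.01 when all probe sets of each gene were averaged. Tox (1.41) and Tox2 (1.64), of the HMG-box family, were higher. Gfi1 (−0.76), Myb (−0.70), Ets2 (−0.44) and Satb1 (−0.34), factors of early thymocytes, were lower; the Satb1 call was lost without γδ array 2 and without DN3a array 1.

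Cytokine receptors were more often higher than lower, with 17 of 29 higher, 3 lower and 9 not passing (median 0.41). Il2rb, the β chain shared by the interleukin 2 and 15 receptors, had the largest rise among genes named by rank. It had 11.09, 10.98 and 11.11 log2 units in γδ T cells, against 5.90, 5.79 and 5.86 in DN3a cells, a difference of 5.21 (SE 0.08, limma adjusted p = 4.76e-11) and a fold of 37.0. Il7r, the receptor α chain that sustains double-negative cells, did not pass (−0.04, adjusted p = 0.815), and its γδ values of 10.83, 10.72 and 10.94 overlapped DN3a values of 10.83, 10.85 and 10.92. Il18r1 (3.39, SE 0.08) and Il21r (2.82, SE 0.11) were higher. Il12rb2, a chain of the interleukin 12 receptor (−0.83), and Tgfbr1 (−0.90) were, besides Il2ra, the receptors that fell.

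Type 1 and cytotoxic genes were higher in part: 14 of 23 were higher, with none lower and 9 not passing (median 0.44). The chemokine Xcl1 had 8.71, 8.84 and 8.81 log2 units in γδ T cells, against 5.43, 5.55 and 5.19 in DN3a cells (3.40, SE 0.10). Ctsw, a protease of cytotoxic cells (2.20), the pore protein Prf1 (1.96) and granzyme A (Gzma, 1.60) rose, and of the master factors Eomes rose by 1.48 (SE 0.19) and Tbx21 by 0.44 (SE 0.09). Of 18 natural killer complex lectin receptors 8 were higher, with none lower and 10 not passing (median 0.22), led by Klrd1 (CD94; 1.49, SE 0.09) and Klrb1f (1.17, SE 0.11). These receptors were dim: with the genes dimmest by mean left out, 1 of the list was called higher. Members of the Klra and related families are near-identical and may share signal.

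Genes of tissue exit, homing and adhesion were higher in 19 of 28 cases, lower in 5 and not passing in 4 (median 1.07). S1pr1, the receptor that guides thymocytes out into blood, had 10.77, 10.63 and 10.59 log2 units in γδ T cells, against 5.70, 5.58 and 5.40 in DN3a cells (5.10, SE 0.09), and Klf2, which drives S1pr1, rose by 1.92 (SE 0.17). Ccr8 had 9.15, 9.14 and 8.90, against 5.06, 5.20 and 4.72 (4.07, SE 0.12). Both receptors were separated from DN3a values on every array. Cxcr6 (2.40) and Ccr7 (1.96) rose, and so did the leukocyte integrin chains Itgb7 (3.45, SE 0.09) and Itgb2 (3.24, SE 0.10). Cxcr4 (−0.49), the receptor for a stromal chemokine, the integrin chains Itga4 (−0.68), Itga6 (−0.52) and Itgb1 (−0.56), and the immaturity marker Cd24a (−0.80; −1.21 with all probe sets averaged) were lower. All 8 measured Gimap GTPases, a family that regulates T-cell survival, were higher (median 1.58), from Gimap4, with 10.002, 9.67 and 10.04 against 5.08, 4.95 and 4.91 (4.92, SE 0.11), to Gimap1 (0.40, SE 0.10). Members of the family are similar in sequence and may share signal.

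The other genes with the largest rises had diverse roles. St6gal1, a sialyltransferase, had 10.81, 10.76 and 10.99 log2 units in γδ T cells, against 5.52, 5.72 and 6.13 in DN3a cells (5.06, SE 0.14). Slc15a1, a peptide transporter, had 10.43, 10.52 and 10.40, against 5.54, 5.50 and 5.60 (4.91, SE 0.08). Samhd1, an enzyme that breaks down deoxynucleotides, had 10.19, 10.19 and 10.15, against 5.48, 5.34 and 5.52 (4.73, SE 0.08). No γδ array came near a DN3a array in any of them. Cd226, an activating receptor (4.84), the calcium-binding S100a6 (4.71), Cd7 (4.45), the ATP-gated channel P2rx7 (4.20) and the tetraspanin Tspan32 (4.04) rose too.

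Growth genes were lower in γδ T cells. Of 38 MYC target and ribosome biogenesis genes 33 were lower, with none higher and 5 not passing (median −0.52). Polr1b, a subunit of RNA polymerase I, had 7.80, 7.73 and 8.15 log2 units in γδ T cells, against 9.17, 9.20 and 9.17 in DN3a cells (−1.29, SE 0.11). Wdr12 (−1.16) and Dkc1 (−1.10), of ribosomal RNA processing, fell by similar amounts. Cholesterol synthesis genes were lower in 14 of 19 cases, higher in 1 (2 without DN3a array 3) and not passing in 4 (median −0.69). Sqle, an oxidising enzyme of the pathway, had 7.72, 7.73 and 7.96, against 9.43, 9.46 and 9.82 (−1.76, SE 0.12), and Fdps fell by 1.05 (SE 0.09), while the isomerase Ebp was higher by 0.42 (SE 0.08).

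Many replication genes were lower, and most mitotic genes did not pass. Of 40 S-phase and replication genes 22 were lower, with 1 higher and 17 not passing (median −0.39). Uhrf1, which maintains DNA methylation at the replication fork, had 10.15, 10.34 and 10.27 log2 units in γδ T cells, against 11.56, 11.51 and 11.52 in DN3a cells (−1.27, SE 0.08), and the primase subunit Prim2 fell by 1.05 (SE 0.09). Cyclin E1 (Ccne1) was the higher member (0.80, SE 0.12). Of 36 G2/M genes 8 were higher, with none lower and 28 not passing (median 0.22), with Cdc25b (1.00), Ube2c (0.81) and Cenpa (0.63) among the higher ones. That count is unsteady and, against 13.1% of all genes, not large: it was 4 without γδ array 2 or DN3a array 1, 5 without γδ array 3, and 5 in the model of all 19 arrays, and the list's median was 0.07 without DN3a array 1, 0.11 without γδ array 2 and 0.31 without γδ array 1. For Ube2c the low DN3a array was the first, at 7.07 against 7.95 and 7.78 on the others. Of 22 inhibitors and quiescence genes 10 were higher, 3 lower and 9 did not pass (median 0.22); beside the fall of Cdkn1a, the inhibitor Cdkn2d (p19) rose by 1.15 (SE 0.10) and the antiproliferative factor Tob1 by 0.98 (SE 0.10).

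Central energy metabolism showed no common direction. Of 22 glycolysis genes 6 were higher, 5 lower and 11 did not pass (median 0.04). The glucose transporters Slc2a3 (1.34, SE 0.12) and Slc2a1 (0.97, SE 0.07, or 0.49 with all probe sets averaged) were higher. The lactate carrier Slc16a1 (−1.20, SE 0.13) and the pyruvate dehydrogenase kinase Pdk1 (−1.11, SE 0.08) were lower. Of 50 oxidative phosphorylation genes 5 were higher, 3 lower and 42 did not pass (median 0.02). Both counts lie below the share of all genes and are unsteady: 1 gene was higher without γδ array 1, DN3a array 1 or DN3a array 2, 2 without γδ array 2 or DN3a array 3, and 10 with a trended prior. None was lower without γδ array 1 or DN3a array 3, and 1 without γδ array 2 or DN3a array 2. Uqcrq of complex III (0.54, SE 0.09) had the largest called difference. Of 17 amino acid transporters 2 were higher and 4 lower, with Slc43a1 at −1.23 (SE 0.08) and Slc7a5 at −0.59 (SE 0.10).

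The genes of the mTOR complexes and their regulators changed one by one, with 11 of 35 higher, 5 lower and 19 not passing (median −0.02). Rptor, whose protein Raptor defines complex 1, had 9.79, 9.77 and 9.74 log2 units in γδ T cells, against 10.34, 10.21 and 10.16 in DN3a cells (−0.47, SE 0.08, adjusted p = 0.00107). The values did not overlap. The arginine sensors Castor1 (1.77, SE 0.13) and Castor2 (1.20, SE 0.09) and the leucine sensor family member Sesn3 (1.34, SE 0.09), which restrain complex 1, were higher. Prr5, a complex 2 subunit (−1.61, SE 0.15), the inhibitor Deptor (−0.99, SE 0.14) and the lysosomal transporter Slc38a9 (−0.53, SE 0.09) were lower.

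Interferon-response genes were higher in 11 of 27 cases, lower in 3 and not passing in 13 (median 0.28). Usp18, which dampens interferon receptor signals, had 9.98, 10.06 and 9.99 log2 units in γδ T cells, against 7.96, 8.11 and 7.74 in DN3a cells (2.08, SE 0.10), and the factor Irf7 rose by 1.41 (SE 0.15). Bst2 (tetherin; −1.31, SE 0.10) and the RNA sensor Ifih1 (−1.06, SE 0.09) were lower. Of 19 class I and peptide-loading genes 8 were higher, 1 lower and 10 did not pass (median 0.20), among them the class I activator Nlrc5 (1.06, SE 0.12). In the Bcl2 family 5 of 16 were higher, 1 lower and 10 did not pass (median 0.13), led by Bcl2a1a (1.41, SE 0.13), which has near-identical copies; 3 were higher without γδ array 1, γδ array 3 or DN3a array 3, in the models of 12 and of 19 arrays, and with arrays centred on their medians. Among heat shock and stress genes, which can mark handling of cells, 6 of 19 were higher, 4 lower and 9 did not pass (median −0.09): Zfp36, a factor of mRNA decay, rose by 2.66 (SE 0.08) and Fos by 1.11 (SE 0.11), while Jun (−0.96, SE 0.16) and the chaperone Hsp90aa1 (−0.78, SE 0.10) fell.

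Markers of other cells of the thymus were checked next; by the labels, the γδ gate removes cells with surface NK1.1, TCRβ, CD4 or CD8, and with them most natural killer and mature αβ T cells. Innate lymphoid and natural killer markers were higher in 9 of 11 cases. Their summed linear intensity was 3532 to 3971 on γδ arrays, against 2560 to 2747 on DN3a arrays. Of the higher ones, Gata3, Zbtb16, Rora, Eomes and Tbx21 also stand on the lists of T-cell and γδ genes above. The others were Itga2 (0.81), Nfil3 (0.67), Klrb1c (0.47), which encodes NK1.1, and Klrk1 (0.41). The Klrb1c call was lost in 2 and the Klrk1 call in 4 of 15 alternative settings. Ncr1, a defining receptor of natural killer cells, was dim in both cell types (5.28 ± 0.09 and 5.20 ± 0.08, SD, n = 3 each) and did not pass. B-cell markers summed to 6296 to 6807 on γδ arrays and 4587 to 5207 on DN3a arrays, with 3 of 13 higher and 2 lower. Ighm carried most of that sum, at 12.47 ± 0.07 and 11.85 ± 0.11 (0.62, SE 0.08, or 0.28 with all probe sets averaged). The other higher ones were Blnk (0.55, SE 0.09) and Cd79a (0.35, SE 0.11, a call lost in 6 of 15 alternative settings). The 2 lower ones were Spib (−3.43, SE 0.11), given above, and Cd79b (−0.45, SE 0.09). Pax5, Ebf1 and Ms4a1, which define B cells, were dim and did not pass the test. Mature αβ T-cell markers summed to 1197 to 1265, against 517 to 611, with 4 of 7 higher: Ccr7, Cd8b1 (1.47, SE 0.18), Cd40lg (0.67) and Cd4 (0.44, not called in the model of 19 arrays). Of 13 dendritic-cell markers 4 were higher, Ccr7 (1.96), H2-Aa (0.74), Irf8 (0.61; 0.34 with all probe sets averaged) and H2-Eb1 (0.40, a call lost in 4 of 15 alternative settings), 1 was lower, Bst2 (−1.31), and 8 did not pass (median 0.17). Their sum of 3048 to 3445, against 4483 to 4746, is carried by Bst2, while Itgax, Flt3, Zbtb46 and Siglech, which mark dendritic cells, were dim in both cell types and did not pass. Myeloid markers summed to 912 to 971, against 1041 to 1083 (0 higher, or 2 without γδ array 3, and 2 lower of 16), erythroid markers to 593 to 759, against 651 to 718 (0 of 5 called, or 1 lower without DN3a array 1 or 3), and stromal markers to 3708 to 3939, against 3688 to 3897 (1 higher and 4 lower of 15). The part of such cells in the results was not tested.

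Genes of the sort gates are not counted as findings, but the gates do not set every direction. Of 10 measured, 6 were higher, with 1 lower and 3 not passing. Besides Il2ra they included Cd44 (1.41) and Cd28 (1.28), whose surface proteins the DN3a gate excludes. Cd8b1 (1.47) and Cd4 (0.44) were higher though both gates exclude CD8 and CD4. Klrb1c (0.47) was higher though the γδ gate excludes NK1.1. The remaining higher gene was Ly6c2 (0.73, SE 0.12). Of 4 sex-linked genes 3 on the Y chromosome did not pass and were near the lowest values on all 6 arrays, from 3.55 to 4.07 log2 units, and Xist was lower by −0.51 (SE 0.08) in γδ T cells.

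The WT difference was last set against the same difference in Rptor-/- mice, to show where it depends on genotype. Rptor signal was 9.77 ± 0.03 in WT γδ T cells and 9.47 ± 0.06 in Rptor-/- γδ T cells (SD, n = 3 each). In WT DN3a cells it was 10.23 ± 0.09, and in Rptor-/- DN3a cells 9.65 ± 0.10 (SD, n = 3 each). The probe set may lie outside the deleted part, but its position is not known here. Why signal remained in Rptor-/- cells was not tested. Between γδ and DN3a cells of Rptor-/- mice 6091 genes (27.5%) differed. The difference of the differences, WT minus Rptor-/-, passed for 97 genes (0.437%), 26 above 0 (0.117%) and 71 below 0 (0.32%). The number is unsteady: it was 52 to 120 when 1 of the 12 arrays was left out, with the lowest count, 52, without WT γδ array 2, and 58, 64, 63, 63 and 64 without WT DN3a arrays 1 and 2, Rptor-/- γδ array 2, and WT γδ arrays 1 and 3.

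Of the 18 natural killer complex lectin receptors 3 were among the 71 genes below 0, Klra5, Klrd1 and Klrh1, and of the 23 type 1 and cytotoxic genes 5 were, with none above 0 in either list. Klra5 differed between γδ and DN3a cells by 0.62 in WT and by 4.01 in Rptor-/- mice, a difference of −3.39 (SE 0.29, adjusted p = 6.16e-05). Its level was 4.61 ± 0.22 in WT γδ T cells and 7.75 ± 0.35 in Rptor-/- γδ T cells (SD, n = 3 each), against 3.99 ± 0.25 in WT DN3a cells and 3.74 ± 0.42 in Rptor-/- DN3a cells. Klrd1 (1.49 and 3.63) and Klrh1 (−0.11 and 1.96) showed the same order of WT and Rptor-/- values. So did the inhibitory receptor Cd200r1 (1.20 and 3.75) and, of the type 1 list, Xcl1 (3.40 and 5.40), Ccl5 (1.73 and 3.57), Fcer1g (0.77 and 2.502), Tyrobp (0.28 and 1.58) and Crtam (0.84 and 2.02); the last 4 are named after their values were seen, and the Crtam call was lost in 11 of 16 alternative settings. Kit did not pass in WT mice (−0.17) but was higher in γδ than in DN3a cells of Rptor-/- mice (1.55), a difference of −1.72 (SE 0.14, adjusted p = 6.16e-05). Its level was 9.86 ± 0.12 in WT γδ T cells and 10.85 ± 0.08 in Rptor-/- γδ T cells, and 10.02 ± 0.03 in WT DN3a cells and 9.29 ± 0.21 in Rptor-/- DN3a cells (SD, n = 3 each). Above 0 was Lbp, a lipopolysaccharide-binding protein (1.81 in WT and 0.65 in Rptor-/- mice). With smaller falls in WT mice, so were Tnfrsf8 (CD30, −1.67 and −2.90), Vwce (−2.02 and −3.06), Ogdhl (−0.73 and −1.83), Myof (−2.01 and −2.95) and Ets2 (−0.44 and −1.20). The genes with smaller falls differed by genotype mainly in DN3a cells. Tnfrsf8 had 6.75 and 6.59 in WT and Rptor-/- γδ T cells, against 8.42 and 9.49 in DN3a cells. In the same order Myof had 5.40 and 5.32, against 7.41 and 8.26, and Ets2 had 8.60 and 8.93, against 9.04 and 10.13.

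**Figure D4:**
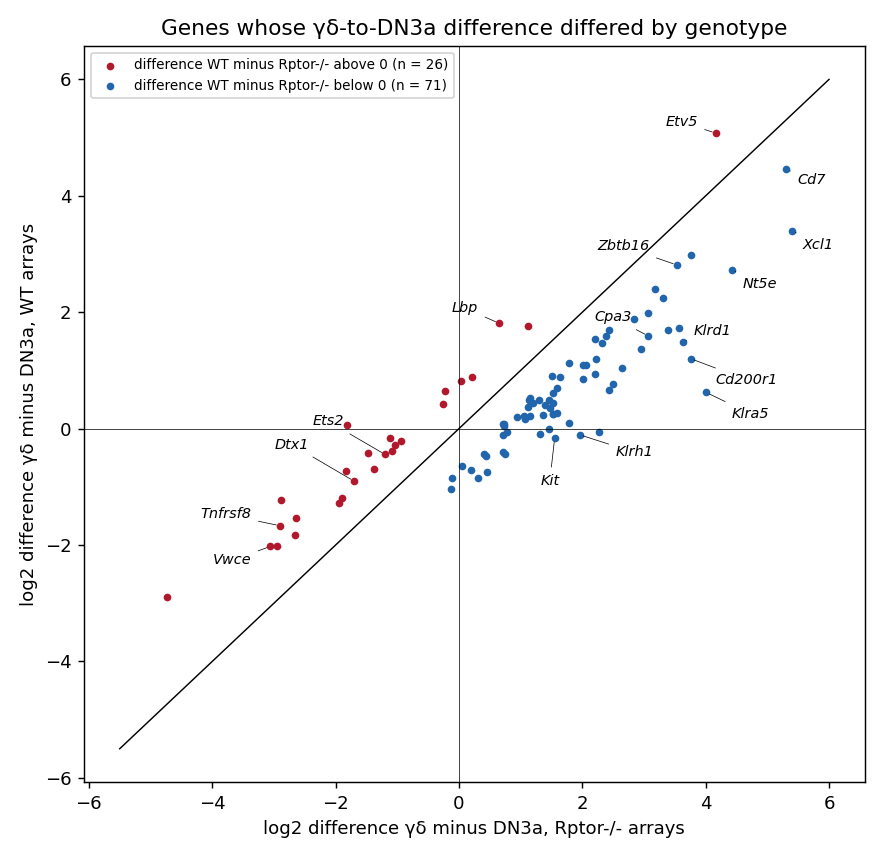
Log2 difference of γδ T cells minus DN3a in WT mice (vertical) and in Rptor-/- mice (horizontal) for the 97 genes whose differences were unequal by limma; the line marks equal differences. The 71 blue genes lie below the line, with Klra5, Cd200r1 and Xcl1 among the farthest, and the 26 red genes above it.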

How the data were processed

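Gene expression of sorted WT γδ T cells and DN3a thymocytes was measured on arrays. The deposited values were log2 expression per probe set, made with RMA in Partek 6.6 per the submitters' processing notes; which arrays shared a normalization is not given in the sources used. The 7 ISP arrays had medians of 3.80 to 3.88, against 6.03 to 6.13 for the other 12, which were taken to share a normalization; the ISP arrays entered only 1 alternative. RMA compresses differences at weak signal, and the table holds no detection call, so no filter was set.

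A single gene symbol was given for 23521 of 41345 probe sets; 1814 with several symbols and 16010 that the annotation does not name were left out. Entrez IDs of 23328 matched a RefSeq table of GRCm38.p6, and no symbol changed. For 1082 of 22180 genes with several probe sets, the one with the highest mean over the 6 arrays was taken.

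Groups came from titles. Differences were fitted with limma 3.58.1 in R 4.3.3 (lmFit, eBayes) on 6 arrays, and their dependence on genotype on 12, with Benjamini-Hochberg adjustment over all genes, threshold 0.05. Every adjusted p is limma's. Exact permutation of 3 arrays against 3 cannot go below p = 0.1 and was not used. The fit was tested on simulated data. Figures used matplotlib 3.10.9 in Python 3.11.15.

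The members and 35 gene lists (801 entries, 727 measured) were chosen with earlier results of these data known; lists are described by counts and medians, without a test. Named were the 15 genes per direction with the largest non-overlapping called differences (predicted, olfactory, vomeronasal, small RNA, pseudogene and receptor-segment names passed over), per list the 5 called genes with the smallest p per direction, all members of the recombination, E and Id, γδ regulator, sort-gate, sex-linked and other-cell marker lists, up to 6 receptor segments per locus, Rptor, and 6 genes per direction that depended on genotype. Alternatives were other sets of arrays, scalings, probe-set choices, a filter on dim genes, the replicate number as a block, a trended prior, and each array left out.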

Additional observations from a re-analysis of the deposited data

Results flagged for a closer look

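The difference between γδ and DN3a cells in WT mice was unequal to that in Rptor-/- mice, by limma's test of the difference itself, for 29 genes, 21 named by the naming rule and 8 other members of the gene lists. Each value below is the WT difference minus the Rptor-/- difference on the log2 scale, followed by the 2 differences, WT first. Such a value can arise from unequal levels between genotypes in γδ T cells, in DN3a cells or in both. The causes were not tested.

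Below 0 among receptors and ligands of killer cells were Klra5 at −3.39 (0.62 and 4.01), Klrd1 at −2.14 (1.49 and 3.63), Klrh1 at −2.06 (−0.11 and 1.96) and Xcl1 at −2.00 (3.40 and 5.40). The inhibitory receptor Cd200r1 was at −2.55 (1.20 and 3.75). Kit at −1.72 (−0.17 and 1.55) and Cpa3 at −1.47 (1.59 and 3.07) are genes of early progenitors. Cpa3 levels in WT and Rptor-/- mice were 11.83 and 11.43 in γδ T cells, and 10.24 and 8.36 in DN3a cells. Nt5e, the ectonucleotidase, was at −1.70 (2.73 and 4.42), the factor Batf3 at −0.90 (0.17 and 1.07), Cd7 at −0.86 (4.45 and 5.31), the chemokine receptor Cxcr6 at −0.79 (2.40 and 3.18) and Zbtb16 at −0.71 (2.81 and 3.53).

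Of the list members that the rule did not name, those below 0 were the chemokine Ccl5 at −1.84 (1.73 and 3.57), the signalling adaptors Fcer1g at −1.74 (0.77 and 2.502) and Tyrobp at −1.31 (0.28 and 1.58), the costimulator Tnfrsf9 (4-1BB) at −1.70 (1.69 and 3.39), the adhesion receptor Crtam at −1.17 (0.84 and 2.02) and the cytokine receptor chain Il10rb at −0.85 (1.47 and 2.32). Those above 0 were the interferon-response gene Ifi204 at 1.87 (0.06 and −1.81) and the factor Lef1 at 0.66 (0.88 and 0.22).

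Above 0 among the genes named by the rule were Tnfrsf8 at 1.24 (−1.67 and −2.90), Lbp at 1.17 (1.81 and 0.65), Ogdhl at 1.10 (−0.73 and −1.83), Vwce at 1.04 (−2.02 and −3.06), Myof at 0.94 (−2.01 and −2.95), Etv5 at 0.91 (5.08 and 4.16), Dtx1 at 0.80 (−0.90 and −1.70), Ets2 at 0.76 (−0.44 and −1.20) and Uhrf1 at 0.67 (−1.27 and −1.94).

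Over 16 alternative settings the call was lost in 12 for Etv5 (highest adjusted p = 0.215), in 11 for Cxcr6 (0.108), Uhrf1 (0.129) and Crtam (0.102), in 10 for Dtx1 (0.0928), in 9 for Lef1 (0.109), and in 1 each for Cd7 (0.386) and Zbtb16 (0.0624). For the other 21 genes it held in every setting run, 16 for each but Klra5, Klrh1 and Ifi204, which the filter on dim genes removed, leaving 15.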

How the results depend on the processing

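No named gene changed direction in the 15 alternative settings. Of 315 named genes 250 were called and 223 of them kept the call in every setting in which they were tested; 27 lost it in at least 1 and 11 others gained it in at least 1. The count of called genes, 5834, was 5545 to 6234 in the settings with all arrays kept and 4687 to 5681 with 1 array left out, and 3986 genes were called in the same direction in every setting without the filter on dim genes. Whether WT replicate numbers pair the samples is not said in the labels, and the main fit took the arrays as unpaired. Deviations of same-numbered γδ and DN3a arrays correlated at 0.0759, 0.026 and 0.1 over genes, each the highest for its γδ array. Arrays of unlike number correlated at −0.0881 to 0.0222. With the replicate block 5833 genes were called. With the block, genes that depended on genotype numbered 109 (97 without), oxidative phosphorylation genes higher 2 (5 without), stress genes lower 7 (4 without) and Bcl2 genes lower 2 (1 without). Genes that depended on genotype numbered 52 to 120 with 1 array left out, 13 to 37 above 0 and 39 to 83 below 0, and 46 were above 0 in the model of 19 arrays, against 26. With all probe sets of a gene averaged, list medians were −0.0098 for Notch signalling (−0.0388 as reported), 0.32 for CD3 and proximal signalling (0.44) and −0.0578 for amino acid transporters (−0.15); without dim genes that of lectin receptors was 0.64 (0.22), and with quantile normalization that of the Bcl2 family was 0.10 (0.13). With 1 array left out, medians ran from −0.41 to −0.31 for pre-TCR and recombination, from −0.0463 to −0.0039 for Notch signalling, from 1.73 to 1.85 for γδ regulators, from 0.35 to 0.49 for type 1 genes, from 0.38 to 0.49 for cytokine receptors, from 0.086 to 0.17 for the Bcl2 family, from 0.16 to 0.27 for inhibitors and quiescence, from −0.55 to −0.47 for MYC targets, from −0.73 to −0.53 for cholesterol synthesis, from 0.0707 to 0.31 for G2/M genes, from −0.11 to −0.0477 for E and Id proteins, from 0.145 to 0.29 for lectin receptors, from −0.0113 to 0.0525 for oxidative phosphorylation, from −0.0045 to 0.10 for glycolysis, from −0.0379 to 0.0395 for mTOR genes and from −0.11 to 0.0067 for stress genes. The signs of the last 4 medians are therefore not settled; the cause was not tested. Dim probe sets, such as lectin receptors and Y-linked genes, limit what small differences can show.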
